A study of Homo sapiens with 12 samples.

Results

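The genes described are the members of the insulin-like growth factor (IGF) axis that act outside the cell or at its surface: the IGF binding proteins IGFBP1 to IGFBP7, the protease PAPPA and the receptors IGF1R and IGF2R. They were taken by name, from probes that are annotated to 1 of these genes only, which gave 10 genes and 12 probes of 18665 genes and 27578 probes. IGFBP3 and IGFBP5 have 2 probes and each of the other 8 genes has 1. All 10 genes passed the filter on dim genes, as did 10581 genes in all. A member at background in 1 of the lines passed that filter through the line in which it is high.

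The RNA came from U373 and U87MG, human glioma cell lines obtained from a cell bank and kept in serum-containing DMEM without drug or genetic change, and was measured on 12 Illumina HumanWG-6 v3 BeadChip arrays. There are 4 groups with 3 biological replicates in each, namely each line in monoculture and each line in indirect co-culture with the other. Cells adhered for 3 h and then, in co-culture, stood for 72 h in a common 3 ml of medium, kept apart by a membrane whose pores measured 0.4 µm. U373 grew in the insert and U87MG in the bottom well, also in monoculture, and line and chamber therefore cannot be told apart.

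IGF1 and IGF2 are secreted growth factors that drive growth and survival through the receptor tyrosine kinase IGF1R, whereas IGF2R carries IGF2 and tagged lysosomal enzymes to the lysosome. IGFBP1 to IGFBP6 bind the IGFs with high affinity and hold them away from IGF1R, and several also act on cells without IGF. IGFBP7 is a related secreted protein that binds IGFs weakly. Pappalysin-1, the product of PAPPA, is a metalloprotease that cuts IGFBP4 and IGFBP5 and so sets bound IGF free, and the stanniocalcins STC1 and STC2 inhibit it. IGFBP2 is well known in glioblastoma, where its level rises with tumor grade.

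A level is the authors' normalized intensity on a log2 scale, on which 1 unit is a factor of 2. The background limit of an array, the mode of its values plus 3 SD, lay between 4.34 and 5.77 over the 12 arrays, and 23.5 to 34.3% of the probes were above it. Differences are those of limma with their standard error (SE), and p-values were adjusted by Benjamini-Hochberg over all 10581 tested genes. A gene was called at an adjusted p under 0.05. The p-values measure the spread between cultures of these 2 lines. In bulk RNA, fewer cells that express a gene and less of its RNA per cell cannot be told apart. Levels of different genes come from different probes and are not set against each other. The correlation of 2 arrays over all probes was 0.9768 to 0.9888 within a group and 0.9091 to 0.9269 across the lines. Calls of marker genes are those between the monocultures. Of 7 listed astrocytic and glioma marker genes, 6 were tested. GFAP, SOX2 and NES were higher in U373 (the first 2 at background in U87MG), EGFR and CD44 were lower and VIM was not called, while S100B was at background on all arrays. Of 4 tested neuronal marker genes, SNAP25 and GAD1 were lower in U373. The 4 tested endothelial marker genes were mixed, with VWF and CDH5 higher and PECAM1 and TEK lower in U373 monoculture. CD14 was higher and CSF1R was not called, the 2 tested microglia and macrophage genes, and CSF1R was above background on all arrays. MBP, the 1 tested oligodendrocyte gene, was higher. VWF, CDH5 and MBP were at background in U87MG monoculture and above it on 2 of 3 U373 monoculture arrays. Between the co-cultures CD44, VWF and MBP were not called, while CSF1R was lower in U373 (-0.65, SE 0.23, adjusted p = 0.0238 by limma). All 6 of 6 mesenchymal and mural marker genes listed (such as COL1A1 and THY1) were higher in U373 monoculture. Of all tested genes, 27.8% were higher there. The 6 genes had mean levels per array of 11.31 to 11.60 in U373 monoculture and 6.95 to 7.25 in U87MG monoculture. Their part in the differences between the lines was not tested.

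The sequences before the start sites of 4 members are shown because these genes form 2 pairs. IGFBP5 and IGFBP2 are neighbours in the genome and were both at background in U87MG monoculture. IGFBP4 and PAPPA, a substrate and its protease, went in opposite directions between the lines. Each window is the 250 bases before the annotated start in the RefSeq annotation of GRCh38.p14, on the strand of the gene, with matches to searched motifs in capitals. Windows for 8 of the 10 members were matched. The windows are chr2:216695550-216695799 (minus strand) for IGFBP5, chr2:216632578-216632827 (plus strand) for IGFBP2, chr17:40443200-40443449 (plus strand) for IGFBP4 and chr9:116153541-116153790 (plus strand) for PAPPA.
IGFBP5: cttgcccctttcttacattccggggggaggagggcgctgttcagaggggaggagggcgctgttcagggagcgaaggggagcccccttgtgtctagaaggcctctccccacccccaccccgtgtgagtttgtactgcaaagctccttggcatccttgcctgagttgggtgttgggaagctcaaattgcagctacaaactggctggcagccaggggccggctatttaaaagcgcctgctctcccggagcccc
IGFBP2: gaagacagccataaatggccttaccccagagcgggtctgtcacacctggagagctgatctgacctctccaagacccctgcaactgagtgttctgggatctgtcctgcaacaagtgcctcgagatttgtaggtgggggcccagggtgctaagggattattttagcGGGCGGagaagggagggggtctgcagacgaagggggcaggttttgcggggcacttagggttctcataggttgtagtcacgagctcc
IGFBP4: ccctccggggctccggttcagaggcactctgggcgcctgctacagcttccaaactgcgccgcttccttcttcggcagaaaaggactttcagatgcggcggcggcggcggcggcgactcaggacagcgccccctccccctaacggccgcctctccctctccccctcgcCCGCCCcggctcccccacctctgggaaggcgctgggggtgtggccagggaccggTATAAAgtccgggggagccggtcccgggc
PAPPA: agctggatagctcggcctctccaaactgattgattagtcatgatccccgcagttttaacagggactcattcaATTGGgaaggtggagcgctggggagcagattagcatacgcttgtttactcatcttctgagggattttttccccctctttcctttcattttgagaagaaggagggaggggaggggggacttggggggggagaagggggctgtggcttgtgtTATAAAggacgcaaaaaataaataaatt

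The motifs searched were the TATA box TATAAA on the strand of the gene and, on both strands, the GC box GGGCGG, the CCAAT box CCAAT, the AP-1 site TGACTCA and the E-box CACGTG. No searched motif overlapped another in the 4 windows. TATAAA stood at -29 to -24 from the start in IGFBP4 and at -28 to -23 in PAPPA, and 6.80% of 35116 promoter windows of this length hold it. None of the 5 motifs was found in the window of IGFBP5, which says only that these letters are not there. IGFBP2 and IGFBP4 held 1 GC box each, at -86 to -81 and -83 to -78. A GC box occurred in 42.6% of all windows. The window of PAPPA had a CCAAT box at -178 to -174, which 32.0% of windows share, and a GC content of 48.0%, against a mean of 57.2% over all windows. The window of IGF1R was the richest in GC of the 8, at 81.2%.

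Between the monocultures, 9 of the 10 genes were called: IGFBP2, IGFBP3, IGFBP4, IGFBP5, IGFBP7 and IGF1R were higher in U373, and IGFBP1, IGFBP6 and PAPPA were higher in U87MG. IGF2R was not called. The lines differed widely, since 59.2% of all tested genes were called in this comparison (27.8% higher and 31.4% lower in U373). The members' count is read against that background, and being called is common in these lines. The members' median difference was 0.87 (log2, U373 minus U87MG), against -0.05 over all tested genes. Of the 7 binding proteins, 5 were higher and 2 lower in U373, with a median difference of 2.40. The 3 members at background in 1 line do not set either median, which therefore stayed the same with them at the bounds given below. The members' median lies between the differences of IGF1R and IGFBP3.

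**Figure D1:**
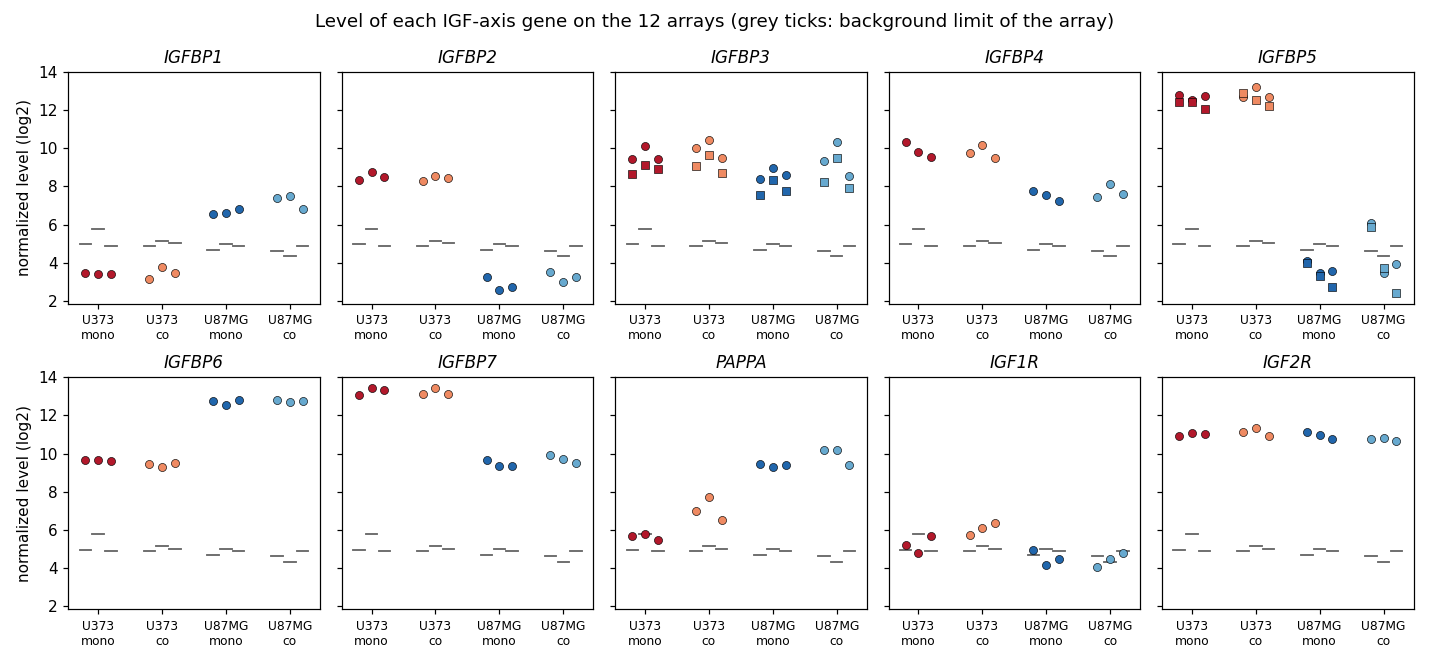
Level (log2) of each of the 10 genes on each of the 12 arrays, by line and culture; replicates run from 1 to 3 within a group, grey ticks mark the background limit of the array, and squares are the second probe of IGFBP3 and IGFBP5. IGFBP5 lay at 12.40 to 12.87 on the U373 arrays and above background on only 1 U87MG array, while PAPPA lay at 5.47 to 5.80 in U373 monoculture, 6.53 to 7.72 in U373 co-culture and 9.28 to 10.20 in U87MG.

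IGFBP5, a binding protein that is abundant in bone and is cut by PAPPA, had the largest fitted difference. Its level was 12.60, 12.49 and 12.40 in the U373 monocultures and 4.05, 3.39 and 3.16 in the U87MG monocultures. The U373 arrays lay far above every U87MG array, and no U87MG monoculture exceeded the background limit by either probe. The level in U373 was at least 201-fold higher, taking the background limit as the level of U87MG. The fitted difference of 8.97 (SE 0.49) had an adjusted p of 4.43e-10 by limma.

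IGFBP2 showed the same pattern at the neighbouring locus. The level was 8.35, 8.75 and 8.48 in the U373 monocultures and 3.23, 2.58 and 2.73 in the U87MG monocultures, where it was at background. U373 was at least 12.8-fold higher. The fitted difference of 5.68 (SE 0.19) had an adjusted p of 1.73e-12 by limma. The genes lie tail to tail on chromosome 2, IGFBP2 at 216632828 to 216664436 and IGFBP5 at 216672105 to 216695549, with 7668 bases and no annotated gene between them. Of the 4 tested genes within 500000 bases of the pair, none was higher in U373. MARCHF4, a membrane ubiquitin ligase, was lower in U373 by limma (fitted log2 difference -4.50, SE 0.28, adjusted p = 1.49e-09). Its mean in U373 monoculture, 3.07, lay below the background limits of those arrays (4.96, 5.77 and 4.88). The fitted size is therefore not a measured fold, and no bound was computed. XRCC5, which repairs broken DNA (-0.98, SE 0.19), and the annealing helicase gene SMARCAL1 (-1.06, SE 0.14) were lower in U373 as well. The ribosomal protein gene RPL37A differed by 0.05 (SE 0.17, adjusted p = 0.809) and was not called.

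IGFBP4, which inhibits IGF action and is the main substrate of PAPPA, was measured at 10.34, 9.79 and 9.56 in U373 monoculture and at 7.74, 7.53 and 7.22 in U87MG monoculture. The groups did not overlap, and U373 was higher by 2.40 (SE 0.23, 5.28-fold, adjusted p = 3.83e-07 by limma). The call was lost with the rank product, a test on the ranks of fold changes that the study's methods name, at an estimated share of false calls (false prediction share) of 0.0773 here and of 0.0960 in co-culture. Groups that do not overlap were frequent, with 64.1% of all tested genes in this comparison. IGFBP7, which is secreted by tumor vessels and stroma, was at 13.05, 13.43 and 13.32 in U373 and at 9.67, 9.33 and 9.37 in U87MG. This is a 14.0-fold higher level in U373 (log2 difference 3.81, SE 0.17, adjusted p = 3.33e-11).

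IGFBP3, the main carrier of IGF in serum, differed less. Its level, the mean of 2 probes, was 9.04, 9.63 and 9.19 in U373 monoculture and 7.98, 8.64 and 8.19 in U87MG monoculture. All U373 arrays were above all U87MG arrays, though by less than the gaps above, and the difference of 1.02 (SE 0.34) passed the test at an adjusted p of 0.0181 in limma. The probes gave 1.02 (SE 0.36) and 1.02 (SE 0.34). The call was lost without U87MG monoculture replicate 1 (adjusted p = 0.0755) or U373 monoculture replicate 2 (adjusted p = 0.0729), and with the rank product (0.487). IGFBP1 lies 18584 bases from IGFBP3 on chromosome 7, again with no annotated gene between, and the pair went in opposite directions between the lines.

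IGFBP1, a liver and decidua protein that insulin represses and hypoxia induces, was 1 of the 3 genes with a higher level in U87MG. The U373 monocultures were at background with 3.47, 3.40 and 3.40, and the U87MG monocultures were at 6.58, 6.59 and 6.81. U373 was at least 2.75-fold lower. The fitted difference of -3.24 (SE 0.19) had an adjusted p of 7.25e-10 by limma. IGFBP6, which prefers IGF2 over IGF1, was bright in both lines, at 9.64, 9.66 and 9.62 in U373 and 12.78, 12.54 and 12.79 in U87MG. U373 was 8.34-fold lower (log2 difference -3.06, SE 0.13, adjusted p = 2.09e-11).

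PAPPA, the only protease among the 10 genes, was at 5.68, 5.80 and 5.47 in U373 monoculture and at 9.46, 9.28 and 9.39 in U87MG monoculture. All 3 U373 values were near the background limit of their arrays, 4.96, 5.77 and 4.88, and all 3 U87MG values were well above theirs. U373 was 13.2-fold lower (log2 difference -3.73, SE 0.26, adjusted p = 7.30e-09 by limma). The values near background are compressed by the normalization, so that this fold can be understated. In RNA, PAPPA had its higher level in the line with the lower levels of IGFBP4 and IGFBP5, the binding proteins it is known to cut. Neither protein nor cleavage was measured, and a link between these levels was not tested.

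**Figure D2:**
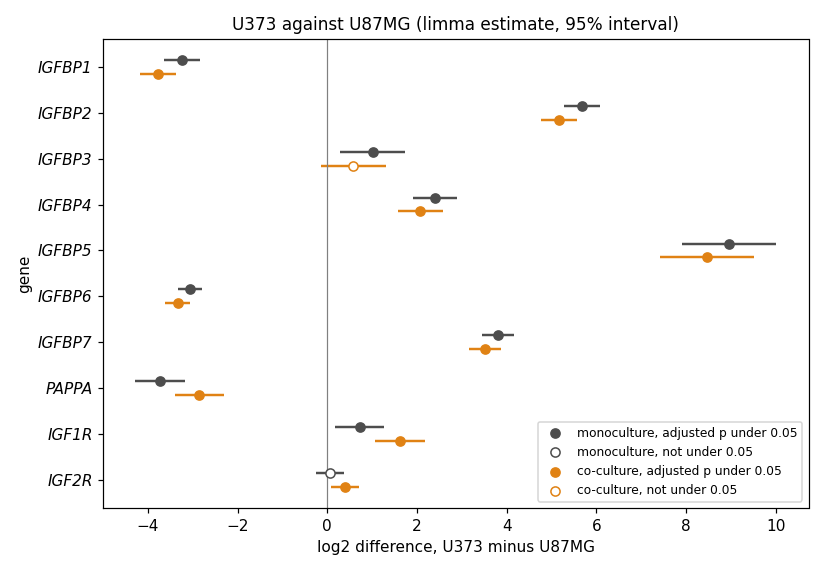
Difference between U373 and U87MG (log2, limma estimate with its 95% interval) for each of the 10 genes, in monoculture (grey) and in co-culture (orange); filled points have an adjusted p under 0.05. IGFBP5 (8.97 and 8.47) lies highest, IGFBP1 (-3.24 and -3.78), IGFBP6 (-3.06 and -3.34) and PAPPA (-3.73 and -2.85) lie lowest, and IGF2R (0.05 and 0.40) lies nearest to 0. The points of IGFBP1 and IGFBP2, and that of IGFBP5 in monoculture, are set against a line at background.

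IGF1R had 1 probe with a dim signal, at 5.23, 4.78 and 5.68 in U373 monoculture and 4.92, 4.17 and 4.45 in U87MG monoculture. It was above background on 2 of 3 U373 and 1 of 3 U87MG arrays, and the groups overlapped. The difference of 0.72 (SE 0.26) had an adjusted p of 0.0265 in limma and missed the threshold without U373 monoculture replicate 1 (0.0584) or 3 (0.123) and without U87MG monoculture replicate 2 (0.122) or 3 (0.0678), as it did with the rank product (0.708). IGF2R was bright in both lines, at 10.95, 11.07 and 11.03 in U373 and 11.13, 10.99 and 10.76 in U87MG. The difference was 0.05 with a 95% interval of -0.26 to 0.36 (adjusted p = 0.769 by limma).

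In co-culture the lines were again compared with each other, to ask whether the differences stood when both lines shared their medium. Again 9 members were called, 6 higher and 3 lower in U373, while 57.4% of all tested genes were called (25.5% higher and 31.9% lower). IGFBP2, IGFBP4, IGFBP5 and IGFBP7 were higher and IGFBP1, IGFBP6 and PAPPA lower in U373, as in monoculture. IGF1R gave 5.71, 6.08 and 6.36 in U373 co-culture, above background on 3 of 3 arrays, and 4.03, 4.48 and 4.78 in U87MG co-culture, above background on 1 of 3. Here the groups did not overlap (62.7% of tested genes), and IGF1R was 3.07-fold higher in U373 (log2 difference 1.62, SE 0.26, adjusted p = 7.47e-05 by limma). The rank product did not call it (false prediction share 0.186).

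IGF2R and IGFBP3 changed sides of the threshold between the 2 cultures. IGF2R was at 11.14, 11.34 and 10.95 in U373 co-culture and 10.75, 10.83 and 10.65 in U87MG co-culture, a difference of 0.40 (SE 0.15, adjusted p = 0.0282 by limma). This call was lost without U87MG co-culture replicate 1 (adjusted p = 0.0610) or 3 (0.0877), without U373 co-culture replicate 1 (0.0542) or 2 (0.123), with arrays centred on their medians (0.0635), with no filter on dim genes (0.0647) and with the rank product (0.984). IGFBP3 was at 9.57, 10.04 and 9.10 in U373 co-culture and 8.81, 9.91 and 8.25 in U87MG co-culture. U87MG replicate 2 reached into the range of U373, and the difference of 0.58 (SE 0.34) was not called (adjusted p = 0.162 by limma). It was called without that array (1.04, adjusted p = 0.00729) and with the replicate number as a block (adjusted p = 0.0279). The difference between these line effects is the test of the co-culture effects below, which called neither gene.

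The order of the 4 groups was alike in its break between the lines for most members. IGFBP2, IGFBP4 and IGFBP7 ran from U373 monoculture through U373 co-culture and U87MG co-culture to U87MG monoculture, and IGFBP3 and IGFBP5 the same but with U373 co-culture on top. IGFBP1 and PAPPA ran from U87MG co-culture through U87MG monoculture and U373 co-culture to U373 monoculture. IGF1R ran from U373 co-culture through U373 monoculture and U87MG monoculture to U87MG co-culture. Values at background, those of IGFBP2 in U87MG and of IGFBP1 in U373, have no order within their line. The same holds for IGFBP5 in U87MG, where 1 of 6 arrays was above background. In IGFBP6 the U373 groups were the other way round, at a mean of 9.64 ± 0.02 (SD, n = 3) in monoculture and 9.43 ± 0.11 in co-culture. For each member, neighbours of the same line did not pass the test. Neighbours across the lines came from the same culture for IGFBP2, IGFBP4, IGFBP6, IGFBP7, IGF1R and IGF2R, with the background shares given above. They were U373 monoculture and U87MG co-culture for IGFBP3 and IGFBP5 (59.5% of all tested genes called) and U373 co-culture and U87MG monoculture for IGFBP1 and PAPPA (57.2% called). These neighbours passed the test for IGFBP1, IGFBP2, IGFBP4, IGFBP5, IGFBP6, IGFBP7, PAPPA and IGF1R, the smallest step being that of IGF1R.

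IGFBP3 and IGF2R had no step between neighbours that passed. IGFBP3 ran from 9.57 ± 0.47 (SD, n = 3) in U373 co-culture through 9.29 ± 0.31 and 8.99 ± 0.85 to 8.27 ± 0.34 in U87MG monoculture, with neighbour differences of 0.28 (adjusted p = 0.818 by limma), 0.29 (0.471) and 0.72 (0.697). Its outer groups differed by 1.30 (SE 0.34, adjusted p = 0.00420). IGF2R ran from 11.14 ± 0.19 in U373 co-culture through 11.02 ± 0.06 and 10.96 ± 0.19 to 10.74 ± 0.09 in U87MG co-culture.

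The effect of co-culture in U373 was compared next. None of the 10 genes was called, and few genes were called at all (12 genes, or 0.113% of those tested, with 1012 at an unadjusted p under 0.05). PAPPA came nearest. It was at 6.97, 7.72 and 6.53 in U373 co-culture against 5.68, 5.80 and 5.47 in monoculture. All co-culture arrays were above all monoculture arrays. Groups without overlap were found for 11.8% of tested genes (6.42% with co-culture higher and 5.40% with it lower). The difference was 1.42 (SE 0.26, 2.68-fold, 95% interval 0.87 to 1.98), with an unadjusted p of 6.46e-05 and an adjusted p of 0.0525 in limma.

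PAPPA crossed the threshold under several other settings and missed it under others. The adjusted p was 0.0445 with a background limit of 5 SD, 0.0326 with a trended and robust prior and 0.0186 with array weights, and the false prediction share of the rank product was 0.00667. Leaving out single arrays moved the adjusted p between 0.0150 (without U373 co-culture replicate 3) and 0.169. PAPPA was high in U87MG, and therefore the genes that were bright in U87MG (by at least 6 log2 units) and at background in all U373 monocultures are given beside it. Genes on chromosome Y were left out. Of these 20 genes, 1, 0 and 0 were above background on U373 co-culture arrays 1, 2 and 3, with median shifts of 0.38, 0.16 and 0.15. The array with the highest level of PAPPA was replicate 2, and the array with the largest shift of these genes was replicate 1. The part of U87MG RNA in the PAPPA signal of U373 co-culture was not tested.

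**Figure D3:**
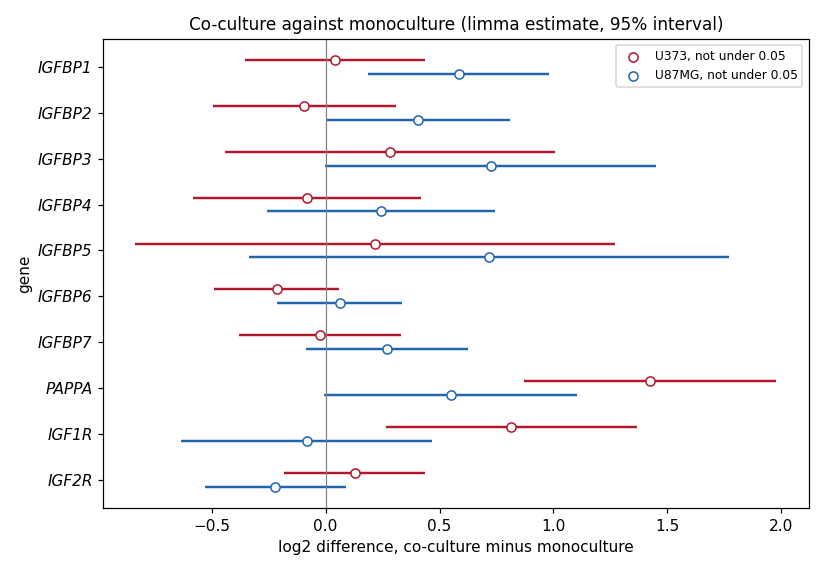
Co-culture minus monoculture (log2, limma estimate with its 95% interval) for each of the 10 genes in U373 (red) and U87MG (blue); no point has an adjusted p under 0.05. PAPPA in U373 lies farthest from 0, at 1.42, followed by IGF1R in U373 at 0.82.

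IGF1R was the other member whose U373 co-culture arrays all had higher values than the monocultures, 5.71, 6.08 and 6.36 against 5.23, 4.78 and 5.68. The gap between the nearest arrays was small, and the difference of 0.82 (SE 0.26) was not called (unadjusted p = 0.00665, adjusted p = 0.313 by limma). IGFBP6 had lower values on all co-culture arrays, at 9.43, 9.31 and 9.53, a difference of -0.21 (SE 0.13, adjusted p = 0.605). The other 7 members overlapped between the U373 cultures. Their differences ran from -0.09 in IGFBP2 to 0.28 in IGFBP3, and the 95% interval of IGFBP2, -0.50 to 0.31, was narrower than that of IGFBP5, -0.83 to 1.27.

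In U87MG, co-culture called no member and no gene of the 10581 tested (0%, with 744 genes at an unadjusted p under 0.05 in limma and 0 members by the rank product). IGFBP1 was the member whose groups did not overlap. It was at 7.42, 7.48 and 6.84 in U87MG co-culture against 6.58, 6.59 and 6.81 in monoculture, and replicate 3 exceeded the highest monoculture only narrowly. Co-culture was higher without overlap in 10.6% of tested genes. The difference of 0.58 (SE 0.19, 1.50-fold) had an unadjusted p of 0.00675 and an adjusted p of 0.681. PAPPA was at 10.20, 10.17 and 9.40 in U87MG co-culture against 9.46, 9.28 and 9.39, a difference of 0.55 (SE 0.26, adjusted p = 0.697). Replicate 3 stayed within the monocultures for PAPPA.

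IGFBP3 gave 8.81, 9.91 and 8.25 in U87MG co-culture against 7.98, 8.64 and 8.19 in monoculture, a difference of 0.72 (SE 0.34, adjusted p = 0.697 by limma). It rested largely on replicate 2, since 0.26 (SE 0.28) remained without that array. IGF2R gave 10.75, 10.83 and 10.65 against 11.13, 10.99 and 10.76, a difference of -0.22 (SE 0.15, adjusted p = 0.757). The values of IGFBP2 stayed at background on all U87MG arrays.

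IGFBP5 was at 5.98, 3.61 and 3.16 in U87MG co-culture. Replicate 1 exceeded its background limit of 4.64 by both probes, at 6.06 and 5.90, and replicates 2 and 3 were at background. The difference from monoculture was 0.72 (SE 0.49, adjusted p = 0.769 by limma), and without replicate 1 it was -0.15 (SE 0.24). The same array carried other genes of U373. A set of 25 further genes was bright in U373 (by at least 6 log2 units) and at background in all U87MG monocultures. Genes on chromosome Y were left out of it. Of these 25 genes, 6, 2 and 0 were above background on U87MG co-culture arrays 1, 2 and 3. Their median shifts from monoculture were 0.78, 0.18 and 0.09. The counts depend on the background limits of these arrays, 4.64, 4.34 and 4.88. The 2 genes on replicate 2 were BGN at 4.83 and CRYAB at 4.59. In the U87MG monocultures BGN was at 4.46 to 4.88, so that its value on replicate 2 was no rise, and CRYAB was at 3.73 to 4.29.

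The 6 genes on replicate 1 were BGN (biglycan, a matrix proteoglycan) at 9.07, CRYAB (a small heat shock protein) at 7.02, ACTG2 at 5.55, TUBB2B at 5.08, THY1 at 5.04 and SFRP1 at 4.67. BGN was at 4.83 and 4.48 on replicates 2 and 3 and at 14.46 to 14.54 in the U373 monocultures. THY1 and the other listed mesenchymal and mural genes had mean levels per array of 6.95 to 7.63 in U87MG co-culture. The part of U373 RNA in the IGFBP5 signal of replicate 1 was not tested. Without replicate 1, no member was called in U87MG co-culture, and 8 members were called between the lines in co-culture, 5 higher and 3 lower in U373.

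**Figure D4:**
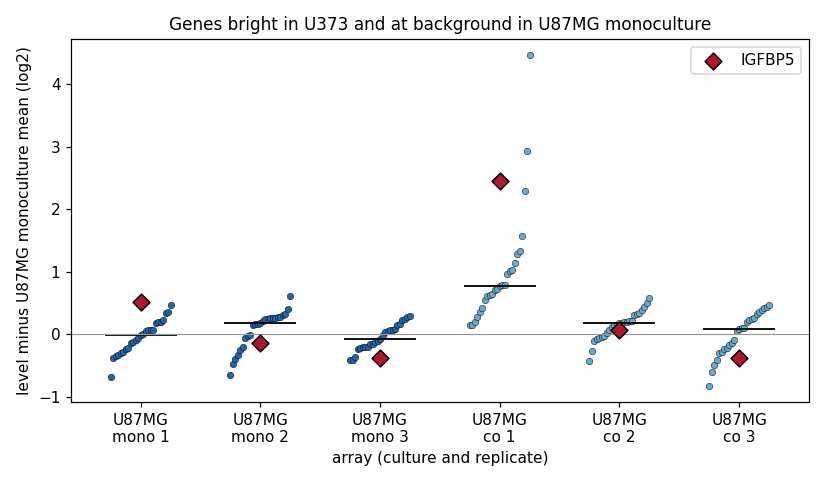
Level minus the mean of the U87MG monocultures (log2) on the 6 U87MG arrays for 25 genes that were bright in U373 and at background in U87MG monoculture (points, black bar at the median), with IGFBP5 as a diamond. On U87MG co-culture replicate 1 the median of the 25 genes was 0.78 and BGN reached a level of 9.07, while the medians of the other 5 arrays lay between -0.08 and 0.18.

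The co-culture effects of the lines were set against each other by the interaction term. No member was called, and 1 gene of all those tested was (0.00945%, with 664 genes at an unadjusted p under 0.05 in limma). PAPPA and IGF1R had the largest differences. The effect in U373 exceeded that in U87MG by 0.88 (SE 0.37) for PAPPA and by 0.90 (SE 0.37) for IGF1R. Both had an adjusted p of 0.777, with unadjusted p-values of 0.0309 and 0.0270. Neither effect was thus shown to differ between the lines.

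The rest of the IGF axis was described by lists of genes. Their counts between the monocultures stand beside 59.2% of all tested genes called (27.8% higher and 31.4% lower in U373). The ligands IGF1, IGF2 and INS had no probe above background on any array, with highest values of 4.37, 4.12 and 4.38, so that no ligand was tested. IGFALS, the acid-labile subunit that joins IGFBP3 in serum, and IGFBPL1 were likewise at background. Of the proteases that cut binding proteins and their inhibitors, 6 of 10 were tested, and 2 were higher and 3 lower in U373 monoculture. PAPPA2, the paralog of PAPPA, was at background on all arrays.

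The inhibitors of PAPPA were lower in U373 monoculture, like PAPPA itself. STC1 was at 10.05, 9.88 and 10.55 in U373 monoculture and 11.78, 11.56 and 11.99 in U87MG monoculture (log2 difference -1.62, SE 0.20, adjusted p = 6.11e-06 by limma). STC2 was at 8.27, 8.15 and 9.02 against 10.24, 10.20 and 10.12 (-1.71, SE 0.52, adjusted p = 0.0107). Between the co-cultures STC1 was again lower (-1.21, SE 0.20), and STC2 was not called (-0.93, SE 0.52, adjusted p = 0.143 by limma). In U373 co-culture STC2 was at 8.69, 11.77 and 9.46, so that replicate 2, the array highest in PAPPA, stood far above the others, and the difference of 1.50 (SE 0.52) was not called (adjusted p = 0.372). The secreted serine protease HTRA1 (0.83, SE 0.22) and the lysosomal protease cathepsin D, CTSD (0.74, SE 0.16), were higher in U373 monoculture. Between the co-cultures CTSD was again higher (1.08, SE 0.16), and HTRA1 was not called (0.22, SE 0.22, adjusted p = 0.396 by limma).

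Among receptors and their partners, 7 of 9 listed genes were tested, with 3 higher and 3 lower in U373 monoculture (59.2% of all tested genes called). The insulin receptor gene INSR was at background on all arrays by its 1 probe. The collagen receptor gene DDR1 (1.39, SE 0.16) and the integrin subunit gene ITGAV (1.41, SE 0.27) were higher in U373 with IGF1R. The other mannose 6-phosphate receptor, M6PR, was lower (-1.57, SE 0.22, adjusted p = 2.06e-05 by limma), in contrast to IGF2R, which was not called. ITGB3, the partner of ITGAV, was lower by 1.49 (SE 0.31). LRP1, an endocytic receptor, was at background in U373 and at least 2.24-fold lower there. Its fitted difference of -2.1 (SE 0.23) had an adjusted p of 1.48e-06 by limma.

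Genes that act within the cell were compared between the monocultures too, where 59.2% of all tested genes were called. Their counts are read against that share. Of the receptor adaptors, 8 of 10 were tested, with IRS2 higher in U373 (0.89, SE 0.31) and IRS1 (-0.47, SE 0.16), GRB10 (-0.46, SE 0.18) and GRB14 (-1.41, SE 0.16) lower. Of the PI3K, AKT and mTOR genes, 17 of 24 were tested, 6 were higher and 5 lower, and the median difference was -0.13 against -0.05 over all tested genes. FOXO1, a transcription factor that AKT holds out of the nucleus, was higher by 1.77 (SE 0.18, adjusted p = 7.03e-07 by limma), and INPPL1, a lipid phosphatase of the pathway, by 1.66 (SE 0.15). PIK3CB, a catalytic subunit of PI3K, was lower by 1.26 (SE 0.26).

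**Figure D5:**
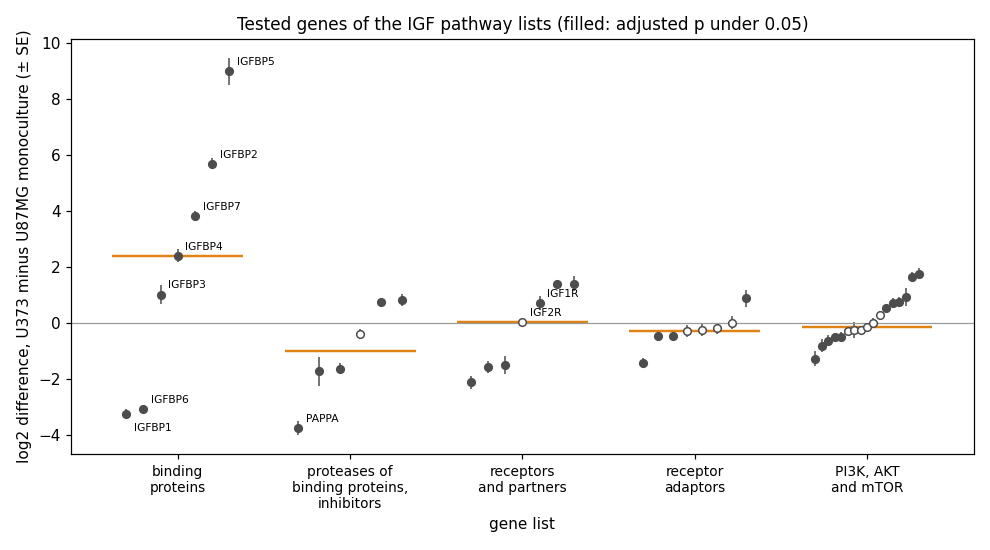
Difference between the U373 and U87MG monocultures (log2, limma estimate ± SE) for the tested genes of 5 lists of the IGF axis; filled points have an adjusted p under 0.05 and orange bars mark the list medians. The points of IGFBP1 (-3.24), IGFBP2 and IGFBP5 (8.97) are set against a line at background, and the tested adaptors and PI3K, AKT and mTOR genes lie between -1.41 and 1.77.

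Related families are read against the same share of 59.2% of all tested genes called. The CCN proteins are matricellular proteins that share the IGFBP module at their start. CCN1 (log2 difference 4.04, SE 0.47) and CCN2 (4.90, SE 0.41) were higher in U373 monoculture. CCN3 was at background in U373 and at least 13.4-fold lower there. Its fitted difference of -5.0 (SE 0.19) had an adjusted p of 6.90e-12 by limma. CCN4 had a difference of 0.57 (SE 0.24, adjusted p = 0.0554). IGF2BP3, which binds the mRNA of IGF2 and is not a secreted binding protein, was lower in U373 by 2.03 (SE 0.17), while IGF2BP2 had a difference of 0.15 (SE 0.23, adjusted p = 0.599). In co-culture against monoculture, no gene of these lists was called in either line.

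For the member with the largest called rise and the one with the largest called fall in U373 against U87MG, the genes of most similar pattern over the 12 arrays were taken by Pearson's r. IGFBP5 ran most like CRYAB (r = 0.9974), THY1 (0.9965) and MGP (matrix Gla protein, 0.9956), and 894 genes had an r over 0.95. PAPPA ran most like IRAK2, a kinase of toll-like and interleukin-1 receptor signaling (0.9856), FAHD1 (0.9845) and BRIX1 (0.9825), with 166 genes over 0.95. The 12 arrays form 2 clusters by line, which sets most of these correlations. IRAK2 gave 6.76, 6.97 and 6.62 in U373 monoculture and 7.64, 8.48 and 7.62 in U373 co-culture, also highest on replicate 2, a difference of 1.13 (SE 0.23, adjusted p = 0.0894 by limma). MGP was at 6.62 on U87MG co-culture replicate 1 and at 4.56 and 4.20 on the others.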

How the data were processed

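Total RNA was hybridized with 1 array per culture. The authors deposited variance stabilized intensities (BeadStudio 3.3.7, then lumi and limma in R 2.12.0, per the labels) on a natural log scale. That base was checked against 1 signal column of the deposited non-normalized intensity table (slope 0.982 for 2363 probes with signals over 1000). None of its 24 columns names a sample, so the other 23 were not used, and limma's neqc was not run. Division by the natural log of 2 gave log2 values. Of 48803 probes, 27578 had 1 gene in the platform annotation, 13 had several and 21212 had none, with symbols updated to GRCh38.p14. Probes of a gene were averaged, and a gene was tested when at least 1 probe was above background on at least 3 of 12 arrays.

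limma 3.58.1 (R 4.3.3, statmod 1.5.0) fitted the means of the 4 groups with no covariate (14.9 degrees of freedom after moderation). For a group with no array above background, a fold is a bound: the mean of the higher group against the mean background limit of the other. The p-value given with a bound is that of the fitted difference, and the bound itself was not tested. Alternatives were other background limits (2 and 5 SD) and no filter, the brightest probe or single probes, quantile normalization and median centring. Others were a different prior, array weights, a fit of only the groups compared, the replicate number as a block and each array left out. A rank product was re-implemented with 100 permutations. Python 3.11.15 with numpy 2.4.6, pandas 2.3.3, scipy 1.17.1 and matplotlib 3.10.9 made tables and figures. The members and gene lists were chosen with earlier results of these data known. The named genes are all members, up to 4 called genes per list by size of difference, and the 3 genes most like the members of largest rise and fall. The genes bright in 1 line only, ACTG2, TUBB2B, SFRP1 and BGN among them, and the genomic neighbours were chosen after the values were seen. The sets of genes bright in 1 line exclude the members and all genes on chromosome Y.

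To see whether replicate numbers pair the arrays, each array's deviation from its group mean was correlated with that of the array of the same number in the other group. The correlation was 0.126, 0.113 and 0.205 between the monocultures, 0.165, 0.153 and 0.131 between the co-cultures and 0.129, 0.178 and 0.153 between the U87MG cultures, over 0.1 in every pair. Between the U373 cultures it was 0.195, -0.102 and 0.557. It was 0.0471, 0.00468 and 0.0631 between U373 monoculture and U87MG co-culture, and 0.160, 0.0154 and 0.221 between U373 co-culture and U87MG monoculture. Arrays of different number correlated at -0.585 to 0.419 between the U373 cultures and at -0.150 to 0.0447 between the monocultures. The main fit took the numbers as pairs in no comparison, so that its p-values use no pairing. The replicate block was run as an alternative only. Neither the labels nor the methods name a shared day.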

Additional observations from a re-analysis of the deposited data

How the results depend on the processing

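The number of members called between the lines stayed within 1.5 times its value under every alternative run, at 8 to 9 of 10 in monoculture and 8 to 10 in co-culture with single arrays left out. The rank product gave 6 in each (3 higher and 3 lower), without IGFBP4, IGF1R and either IGFBP3 (monoculture) or IGF2R (co-culture). For U87MG co-culture and for the difference of the co-culture effects it was 0 under each alternative run. For U373 co-culture it went from 0 to 1, always by PAPPA. This happened with a background limit of 5 SD, a trended and robust prior and array weights. The replicate block (adjusted p = 0.0116 by limma) and the rank product gave 1 as well. Same-numbered U373 cultures correlated at 0.195, -0.102 and 0.557, too few and too uneven to decide whether they pair. With single arrays left out, the number called ranged from 0 to 1. The cause of these moves was not tested. With the replicate block, IGFBP3 was also called between the co-cultures (adjusted p = 0.0279), and no further call of a member changed.

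Of 575 values of single members under the other settings, 557 kept their direction and side of the threshold, 8 lost the call, 6 gained it and 4 changed sign. The sign changes all concern small effects of U373 co-culture: IGFBP1 at -0.0063 with quantile normalization and -0.00048 with median centring, and IGFBP2 at 0.029 and IGFBP7 at 0.11 with array weights. With single arrays left out, 571 of 600 values kept both, 10 lost the call, 4 gained it and 15 changed sign. The latter were effects without a call: in U373 co-culture IGFBP1 (-0.11 to 0.20), IGFBP2 (-0.18 to 0.019), IGFBP4 (-0.26 to 0.14) and IGFBP7 (-0.14 to 0.057), in U87MG co-culture IGFBP5 (-0.15 to 1.26), IGFBP6 (-0.019 to 0.10) and IGF1R (-0.26 to 0.12), IGF2R between the monocultures (-0.047 to 0.14), and the interaction of IGFBP3 (-0.81 to 0.020) and IGFBP5 (-1.05 to 0.36). IGF1R fell below the filter at 5 SD.

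The interval of the co-culture effect of IGFBP5 in U373 (-0.83 to 1.27) was so wide that a change of 2-fold could not be told from none. The 4 groups share 1 estimate of the spread, to which the outlying U87MG co-culture replicate 1 contributes. The SE of this U373 effect was 0.49, against 0.21 without that array and 0.16 in a fit of only the groups compared. Signals near background are compressed by the normalization, which limits IGF1R, IGFBP1 in U373 and PAPPA in U373 monoculture.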
